A study of Mus musculus with 12 samples.

Results

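The interferon-stimulated genes are a set of 44 genes named for their induction by interferon in many cell types. They were listed by gene symbol, with earlier results of these data known. All 44 were found among the 50674 genes of the count table, and 43 passed the filter on low counts that left 17457 genes for testing. Oas2 was the member that did not pass, with 0 to 22 counts per library. The cells were splenic natural killer (NK) cells of mice, expanded in interleukin-2 in every group, and their polyadenylated RNA was sequenced in 12 libraries.

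The 4 groups of 3 libraries were wild-type cells left untreated, wild-type cells given 6 h of stimulation of NKG2D, a receptor that activates NK cells, and Mirc11-/- cells under the same pair of treatments. Mirc11 is a cluster of the microRNA genes Mir23a, Mir27a and Mir24-2, and the strain label of all samples was C57BL/6. The submitters call the 3 libraries of a group biological replicates, but the labels do not say whether each came from its own mouse or how the allele was made, so p-values here measure the spread between these libraries.

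Interferons bind receptors at the cell surface and act through JAK kinases. Type I interferons activate a complex holding STAT2 and IRF9 that binds interferon-stimulated response elements (ISRE), whereas interferon-gamma, a major product of activated NK cells, acts through gamma-activated sequences (GAS). Genes reached by these pathways encode viral RNA sensors, nucleases, membrane-restricting proteins and guanylate-binding proteins, and many of them feed back on the pathway itself.

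RefSeq promoter sequences on GRCm38.p6 were matched for 34 of the 44 members, each covering 250 bases before and 50 bases after a start site. An ISRE core, searched on both strands as GAAA, any 2 bases and GAAA, was found in 15 of the 34 (44.1%), against 3.99% of all 27025 genes in the promoter table. A GAS core, searched as TTCNNNGAA, was found in 8 of the 34 (23.5%), against 9.55% of all genes. Matches to the ISRE and GAS cores were counted separately and may overlap. The stretches below, written 5′ to 3′ on the gene's strand with the ISRE core in capitals on either strand, are shown because they belong to members whose levels responded differently. Gbp2 (chr3:142620594-142620623, plus strand), Gbp3 (chr3:142559894-142560025, plus) and Gbp7 (chr3:142530186-142530335, plus) are neighbours on chromosome 3. Isg15 (chr4:156200819-156200968, minus), Oas3 (chr5:120777662-120777809, minus) and Bst2 (chr8:71537473-71537622, minus) lie elsewhere.
Gbp2: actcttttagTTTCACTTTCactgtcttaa
Gbp3: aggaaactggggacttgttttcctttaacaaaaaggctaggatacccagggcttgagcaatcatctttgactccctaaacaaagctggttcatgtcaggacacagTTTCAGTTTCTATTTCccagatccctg
Gbp7: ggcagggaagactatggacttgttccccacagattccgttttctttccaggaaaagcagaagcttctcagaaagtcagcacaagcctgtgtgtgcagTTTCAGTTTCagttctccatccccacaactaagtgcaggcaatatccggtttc
Isg15: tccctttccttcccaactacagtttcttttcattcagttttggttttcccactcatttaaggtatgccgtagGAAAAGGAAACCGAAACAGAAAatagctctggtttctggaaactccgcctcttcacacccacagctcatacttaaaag
Oas3: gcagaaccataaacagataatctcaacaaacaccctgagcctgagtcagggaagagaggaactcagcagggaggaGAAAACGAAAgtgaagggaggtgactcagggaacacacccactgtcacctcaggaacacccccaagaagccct
Bst2: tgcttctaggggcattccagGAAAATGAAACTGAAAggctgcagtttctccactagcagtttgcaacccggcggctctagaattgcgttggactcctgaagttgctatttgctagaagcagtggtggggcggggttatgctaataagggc
The capitals begin 59 bases before the RefSeq start site in Gbp2, at positions -45 and -39 in Gbp3 and at -53 in Gbp7. The GENCODE annotation starts Gbp2 at 142620602, so its core lies inside the annotated exon. A second RefSeq start site of Gbp3 had 0 ISRE cores. In Isg15 3 overlapping cores begin at -78, -72 and -66, in Oas3 a single core begins at -75, and in Bst2 a pair begins at -130 and -124. A match describes the letters only and is not evidence of binding.

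Totals per library ranged from 15139281 to 25342991 counts. Levels are given in CPM (counts scaled to the composition-adjusted library size) in the order of replicates 1, 2 and 3. Changes are on the log2 scale, and the SE is their standard error from the model. A gene is called changed when its Benjamini-Hochberg adjusted p over all genes tested, from the quasi-likelihood test of edgeR, is below 0.05. Counts of Mir27a were 2 to 3 in unstimulated and 0 to 4 in stimulated wild-type libraries and 0 in all 6 Mirc11-/- libraries, and with Mir23a at 0 throughout these few counts check the genotype only weakly. All 12 NK markers were present. Summed markers of other cells were 313 to 453 CPM for T cells, mainly Trbc1 and Trbc2, and 57.1 to 129 CPM for B cells, with Ighm at 54.0 to 126, Ms4a1 at 1.49 to 5.85, and Cd79b and Igkc at or near 0. Macrophage markers summed to 26.1 to 46.7 CPM, with Itgam at 16.0 to 36.8, Cd14 at 1.89 to 9.27 and Cd68 at 2.96 to 9.22, and Lyz2 and Adgre1 at or near 0. Neutrophil markers summed to at most 2.28 CPM and erythroid markers to at most 0.290 CPM. The summed CPM of vomeronasal receptor genes, which NK cells are not known to use, was 13.6 to 17.4 in unstimulated libraries, 24.8 to 41.5 in stimulated wild-type libraries and 49.1 to 85.4 in stimulated Mirc11-/- libraries, the highest being replicate 1. That library stood apart in its counts, with a chi-square per degree of freedom of 50.8 and 42.8 against replicates 2 and 3, which differed from each other by 5.15. Stimulated wild-type replicate 1 also stood apart, at 30.3 and 36.8 against its replicates 2 and 3, which differed from each other by 14.8.

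Per kilobase of exon and averaged over all libraries, Samd9l, Lgals3bp and Epsti1 had the highest levels of the set, at 38.3, 35.9 and 35.8 CPM per kilobase. Antiviral members spread widely, from Bst2 at 15.6, Ddx58 at 11.5, Eif2ak2 at 10.2 and Mx1 at 7.05 to Isg15 at 2.35, Oas3 at 2.25, Rsad2 at 1.38, Ifit1 at 0.751 and Ifit3 at 0.464 CPM per kilobase. Oas2 was lowest at 0.071 CPM per kilobase. The set therefore spanned well-expressed members of the Samd9, Parp and Gbp families and members with few reads.

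**Figure D1:**
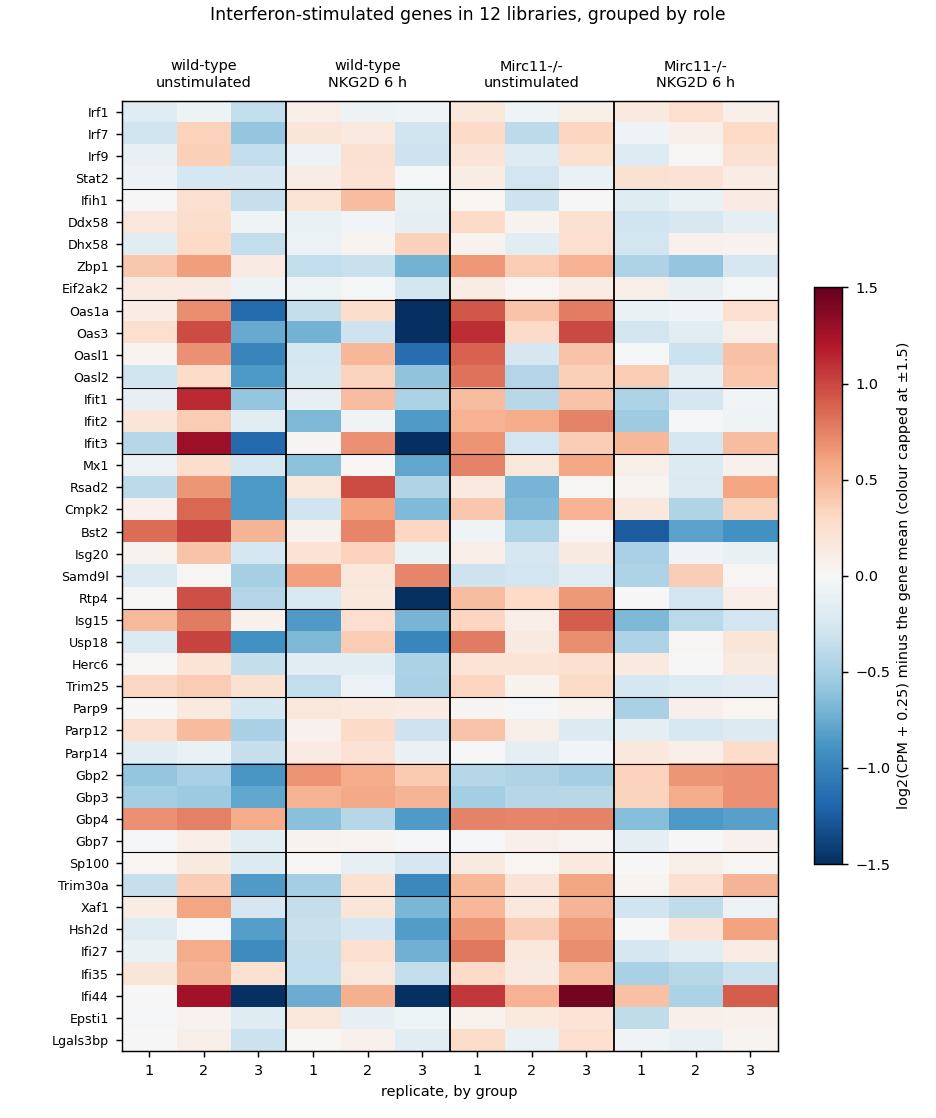
Colour shows each tested member's log2 CPM (with the small offset given on the colour bar) minus its mean over the 12 libraries, with rows grouped by role and columns by group and replicate. Gbp2 and Gbp3 are high and Gbp4 is low in the stimulated libraries of both genotypes, and in wild-type cells replicate 2 is redder than replicate 3 for most rows.

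After NKG2D stimulation the set did not move as one in wild-type cells. Of 43 members tested, 5 rose (Gbp2, Gbp3, Samd9l, Stat2 and Parp14) and 5 fell (Gbp4, Zbp1, Ifit2, Trim25 and Ifi35), where 16.1% of all genes tested rose and 15.7% fell. Their median log2 change was -0.18, against 0.02 over all genes. In Mirc11-/- cells 2 members rose (Gbp2 and Gbp3) and 9 fell (Gbp4, Isg15, Zbp1, Bst2, Ifit2, Ifi35, Xaf1, Trim25 and Ddx58), where 23.5% of all genes rose and 22.1% fell. The median was -0.20, against 0.03 over all genes. In this fit, which has no replicate block, the share of members that rose or fell was no larger than the share of all genes in both genotypes. The fit with a block, given next, had a larger share of members than of all genes that fell in wild-type cells. Genes called in both genotypes, which share no library, were 2 that rose and 5 that fell, that is 7 of 10 called in wild-type and 7 of 11 called in Mirc11-/- cells, where over all genes 80.3% of wild-type calls and 56.1% of Mirc11-/- calls were shared in this way. The sign of the change was the same for 35 of the 43 members and for 80.1% of all genes. Stimulated and unstimulated libraries did not overlap for 10 of the 43 members in wild-type and 19 in Mirc11-/- cells, against 49% and 54% of all genes. Without stimulated Mirc11-/- replicate 1, 2 members rose and 7 fell in Mirc11-/- cells, Isg15 and Xaf1 being the calls lost. Shares over all genes are not given for that fit, so these counts have no baseline.

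The replicate numbers paired the wild-type libraries in their genome-wide deviations, a pairing read from these data and not stated by the labels. Same-numbered Mirc11-/- libraries did not deviate together in every pair (r = 0.17, -0.08 and 0.30). A fit that blocks on these numbers inside each genotype therefore has p-values that depend on this choice. It gave 12 members that fell in wild-type cells, where 17.2% of all genes fell. Added to the 5 were Oas3 with a log2 change of -1.04 (adjusted p = 0.00122 by edgeR), Mx1 with -0.43 (0.00516), Xaf1 with -0.45 (0.00677), Isg15 with -1.0 (0.0176), Rtp4 with -0.79 (0.0228), Ifi44 with -0.93 (0.0228) and Oas1a with -0.52 (0.0286). The same 5 as without the block rose, where 16.9% of all genes rose. Summed NK markers were 14555 to 17283 CPM in unstimulated and 10477 to 12080 CPM in stimulated wild-type libraries, and 15386 to 17001 and 6062 to 9582 CPM in Mirc11-/- libraries. Summed B-cell markers, nearly all Ighm, were 57.1 to 73.2 CPM in unstimulated and 102 to 129 CPM in stimulated libraries, with Cd79b and Igkc at or near 0. The part of these shifts in the members' changes was not tested. A fit with the vomeronasal level as a covariate gave 2 members that fell in wild-type and 1 in Mirc11-/- cells, where 10.7% and 1.51% of all genes fell. That level was higher in every stimulated than in every unstimulated library, so the fit could separate stimulation from it only by the spread within groups. In bulk RNA, fewer cells of a type and less RNA per cell cannot be told apart.

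**Figure D2:**
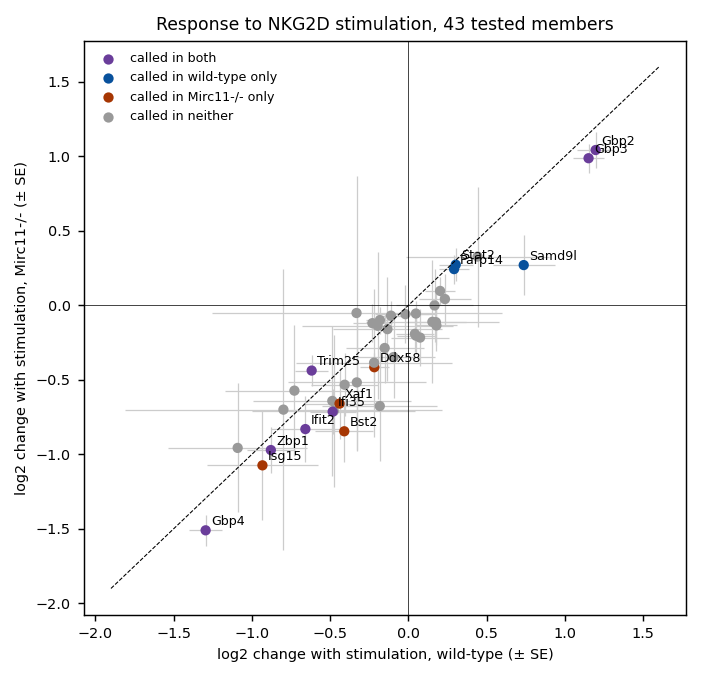
Each point is a tested member, placed by its log2 change with stimulation in wild-type cells (x) and in Mirc11-/- cells (y), with bars of 1 SE and the dashed line marking equal change. Gbp2 and Gbp3 lie at the upper right and Gbp4 at the lower left, and grey points were called in neither genotype.

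The guanylate-binding proteins, interferon-inducible GTPases that act on pathogen-containing vacuoles, gave the largest rises and the largest fall of the set. Gbp2 measured 19.2, 20.5 and 15.7 CPM in unstimulated and 46.3, 42.6 and 37.8 CPM in stimulated wild-type libraries, against 21.4, 21.0 and 20.2 and then 36.7, 45.6 and 46.5 CPM in Mirc11-/- libraries. Every stimulated library was above every unstimulated one. The log2 change was 1.20 ± 0.12 (SE, n = 3 per group, edgeR adjusted p = 7.81e-06) in wild-type and 1.04 ± 0.12 (adjusted p = 1.69e-05) in Mirc11-/- cells. Its neighbour Gbp3 measured 26.8, 26.3 and 22.2 CPM and then 55.0, 57.0 and 54.8 CPM in wild-type libraries, and 26.9, 28.4 and 28.8 CPM and then 48.4, 56.3 and 61.9 CPM in Mirc11-/- libraries. Again no stimulated library overlapped an unstimulated one, with log2 changes of 1.15 ± 0.10 (adjusted p = 2.04e-06) and 0.99 ± 0.10 (adjusted p = 5.28e-06).

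Gbp4, on chromosome 5, moved the other way. It measured 223, 233 and 204 CPM and then 89.5, 102 and 76.6 CPM in wild-type libraries, and 231, 230 and 231 CPM and then 88.6, 75.6 and 78.6 CPM in Mirc11-/- libraries. The groups did not overlap, and the log2 change was -1.30 ± 0.11 (adjusted p = 1.33e-06) in wild-type and -1.51 ± 0.11 (adjusted p = 2.52e-07) in Mirc11-/- cells. Gbp7, next to Gbp3, stayed at 113, 123 and 102 CPM and then 119, 118 and 112 CPM in wild-type libraries, and at 113, 121 and 118 CPM and then 104, 115 and 120 CPM in Mirc11-/- libraries. Its stimulated and unstimulated libraries overlapped in both genotypes, with log2 changes of 0.05 ± 0.08 and -0.06 ± 0.08. Gbp2, Gbp3 and Gbp7 all carry an ISRE core in the sequences shown above. The first core of each begins 45 to 59 bases before the RefSeq start shown, which for Gbp2 is inside the GENCODE exon. Presence of a core in this window therefore did not separate the genes that rose from the one that did not.

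The list of further interferon-induced genes holds 7 other Gbp genes, named here after their values were seen. On chromosome 3, Gbp5 rose by 0.80 in wild-type and 0.85 in Mirc11-/- cells (edgeR adjusted p = 0.000547 and 0.000238), and Gbp2b, with at most 4 counts in a library, was not tested. On chromosome 5, Gbp6 changed by -1.14 and -1.26, Gbp8 by -0.49 and -0.48, Gbp9 by -0.49 and -0.46, Gbp10 by -1.22 and -1.42, and Gbp11 by -1.63 and -1.74. All 5 passed in both genotypes, the highest adjusted p being that of Gbp6 (0.0363 and 0.0182). These genes are near-identical copies in part: 89.8% of the 31-base words of Gbp10, 74.2% of Gbp6 and 14.3% of Gbp4 also occur in transcripts of other genes, and the annotated spans of Gbp4, Gbp8 and Gbp9 overlap, so the authors' counting could split reads among the chromosome 5 genes. For Gbp2 and Gbp3 the shares were 4.85% and 5.64%.

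**Figure D3:**
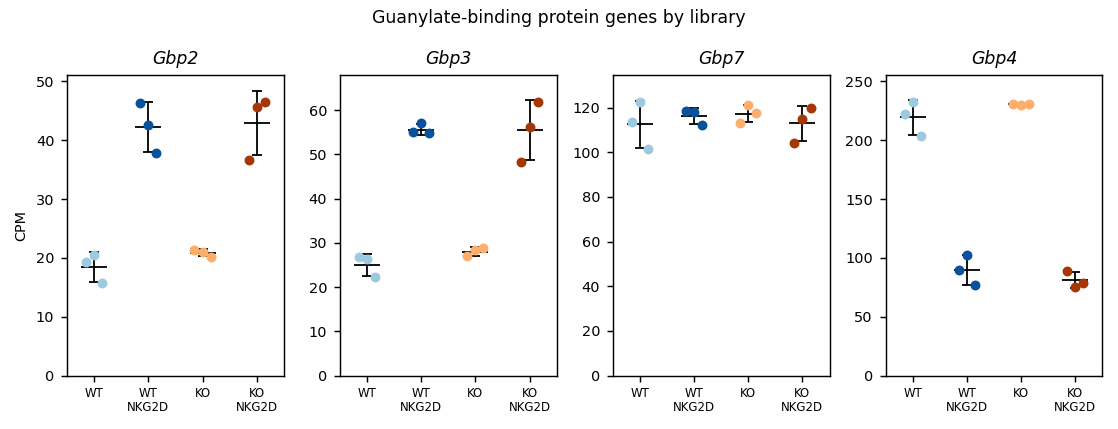
CPM of 4 guanylate-binding protein genes is plotted for each library (points) with the group mean and SD (bars), for wild-type (WT) and Mirc11-/- (KO) cells with and without NKG2D stimulation. Stimulated points lie above unstimulated ones for Gbp2 and Gbp3, below them for Gbp4, and among them for Gbp7.

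Of the regulators, Irf1, a transcription factor induced by interferon-gamma, measured 48.1, 51.8 and 42.4 CPM and then 58.5, 52.1 and 52.9 CPM in wild-type libraries, and 60.9, 52.4 and 58.4 CPM and then 60.6, 65.3 and 57.8 CPM in Mirc11-/- libraries. Stimulated and unstimulated wild-type libraries did not overlap, but the log2 change of 0.20 ± 0.09 did not pass (adjusted p = 0.117). Irf9, the DNA-binding subunit of the complex it forms with STAT2, measured 32.2, 44.5 and 26.8 CPM and then 33.0, 40.8 and 28.0 CPM in wild-type libraries, and 39.8, 30.3 and 41.0 CPM and then 30.5, 35.4 and 40.8 CPM in Mirc11-/- libraries. All its groups overlapped, with log2 changes of -0.02 ± 0.19 and -0.06 ± 0.20. Stat2, its partner, rose by 0.30 ± 0.11 in wild-type cells at the edge of the threshold (adjusted p = 0.0494), and its 0.27 ± 0.11 in Mirc11-/- cells did not pass (0.0584). The Stat2 call ended without unstimulated wild-type replicate 1 (adjusted p = 0.0561), 2 (0.145) or 3 (0.153) and without stimulated wild-type replicate 1 (0.120) or 2 (0.177). It also ended without unstimulated Mirc11-/- replicate 3 (0.0742) and without stimulated Mirc11-/- replicate 2 (0.0620) or 3 (0.0608). Irf7, the master factor of type I interferon genes, was at 9.26 to 17.9 CPM and was called in neither genotype.

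Among sensors of foreign nucleic acid, Zbp1, which binds left-handed double helices and can trigger cell death, fell in both genotypes. It measured 15, 17.5 and 12.3 CPM and then 8.66, 8.87 and 6.81 CPM in wild-type libraries, and 17.8, 14.8 and 16.3 CPM and then 8.11, 7.40 and 9.44 CPM in Mirc11-/- libraries. No stimulated library reached an unstimulated one, and the log2 change was -0.88 ± 0.15 (edgeR adjusted p = 0.000656) and -0.97 ± 0.15 (0.000212). Ddx58, which encodes the RNA sensor RIG-I, measured 90.2, 96.1 and 76.9 CPM and then 74.8, 78.0 and 73.3 CPM in wild-type libraries, and 98.0, 83.3 and 94.3 CPM and then 65.4, 68.0 and 73.1 CPM in Mirc11-/- libraries. Its groups overlapped in wild-type cells, where -0.22 ± 0.09 did not pass (0.0919), and did not overlap in Mirc11-/- cells, where it fell by 0.42 ± 0.09 on the log2 scale (adjusted p = 0.00281). Eif2ak2, the kinase PKR that halts translation on double-stranded RNA, measured 56.8, 56.4 and 49.5 CPM and then 49.8, 50.8 and 42.8 CPM in wild-type libraries, and 56.0, 53.1 and 56.2 CPM and then 55.4, 48.1 and 50.8 CPM in Mirc11-/- libraries. Both pairs of groups overlapped and neither change passed (adjusted p = 0.141 and 0.392). Ifih1 (the sensor MDA5) and Dhx58 (its cofactor LGP2), at 5.85 to 21.9 CPM, were called in neither genotype.

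The 2'-5' oligoadenylate synthetases make the second messenger that activates RNase L. Oas3 measured 16.5, 27.6 and 8.14 CPM and then 8.38, 11.2 and 4.78 CPM in wild-type libraries, and 30.4, 17.0 and 28.0 CPM and then 11.5, 12.4 and 14.9 CPM in Mirc11-/- libraries. In wild-type cells the groups overlapped, with replicate 3 low and replicate 2 high under both treatments, and each replicate number was lower after stimulation. Without a block its log2 changes of -1.09 ± 0.44 and -0.96 ± 0.43 did not pass (adjusted p = 0.0908 and 0.0993), and with the block the wild-type change passed, as given above. Oas1a measured 6.16, 9.40 and 2.41 CPM and then 4.38, 6.88 and 1.47 CPM in wild-type libraries, and 11.1, 7.76 and 9.84 CPM and then 5.27, 5.48 and 6.80 CPM in Mirc11-/- libraries. The same order of replicates appeared in wild-type cells, and 68.8% of the 31-base words of Oas1a also occur in other genes, chiefly Oas1g, so its level is uncertain. Oasl1 and Oasl2, at 0.641 to 5.96 CPM, were called in neither genotype.

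Of the IFIT genes, whose proteins bind viral RNA ends, Ifit2 fell in both genotypes. It measured 6.79, 7.86 and 5.29 CPM and then 3.63, 5.76 and 3.20 CPM in wild-type libraries, and 8.66, 8.89 and 10.1 CPM and then 4.06, 5.83 and 5.67 CPM in Mirc11-/- libraries. The wild-type groups overlapped through stimulated replicate 2, and the Mirc11-/- groups did not overlap. The log2 change was -0.66 ± 0.22 (edgeR adjusted p = 0.0357) and -0.83 ± 0.22 (0.00744). The wild-type call ended without unstimulated replicate 1 (adjusted p = 0.0882) or 2 (0.120), and without stimulated replicate 1 (0.131) or 3 (0.137). Ifit1 measured 1.69, 4.34 and 1.16 CPM and then 1.68, 2.65 and 1.27 CPM in wild-type libraries, and 2.65, 1.32 and 2.58 CPM and then 1.28, 1.51 and 1.80 CPM in Mirc11-/- libraries. Its groups overlapped and neither change passed. Ifit3 was at 0 to 1.98 CPM and shares 61.8% of its 31-base words with other genes, chiefly Ifit3b.

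Among the antiviral effectors, Samd9l, which limits translation and cell growth, had the highest level per kilobase, as given above. It measured 174, 204 and 142 CPM and then 307, 226 and 333 CPM in wild-type libraries, and 161, 164 and 178 CPM and then 145, 259 and 203 CPM in Mirc11-/- libraries. Wild-type groups did not overlap and the log2 change was 0.74 ± 0.20 (edgeR adjusted p = 0.0142), whereas the Mirc11-/- groups overlapped through stimulated replicate 1 and 0.27 ± 0.20 did not pass (0.289). The wild-type call ended without unstimulated replicate 3 (adjusted p = 0.0658) and without stimulated replicate 1 (0.0512) or 3 (0.0591), and the interaction, -0.47 ± 0.28, did not pass (0.515). Mx1, of the dynamin-like GTPase family, measured 24.2, 30.9 and 21.2 CPM and then 16.7, 25.9 and 14.8 CPM in wild-type libraries, and 43.2, 28.7 and 38.3 CPM and then 27.1, 22.2 and 26.8 CPM in Mirc11-/- libraries. Its wild-type groups overlapped, its Mirc11-/- groups did not, and neither change passed without the block (adjusted p = 0.170 and 0.0578). Rsad2 (viperin), its neighbour Cmpk2, the exonuclease Isg20 and the receptor transporter Rtp4, at 0.762 to 16.6 CPM, were called in neither genotype without the block.

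In the ISG15 conjugation system, Isg15, the ubiquitin-like modifier itself, measured 2.39, 2.97 and 1.72 CPM and then 0.792, 1.99 and 0.914 CPM in wild-type libraries, and 2.10, 1.77 and 3.28 CPM and then 0.927, 1.17 and 1.29 CPM in Mirc11-/- libraries. Wild-type groups overlapped through stimulated replicate 2, and Mirc11-/- groups did not overlap. The log2 change was -0.93 ± 0.36 in wild-type cells, which did not pass without the block (adjusted p = 0.0603), and -1.07 ± 0.37 in Mirc11-/- cells (0.0291), where the call ended without unstimulated replicate 3 (0.136) and without stimulated replicate 1 (0.0744) or 2 (0.0507). Trim25, an E3 ligase for RIG-I and ISG15, measured 45.8, 48.5 and 43.4 CPM and then 28.5, 34.9 and 26.3 CPM in wild-type libraries, and 46.2, 38.5 and 45.2 CPM and then 30.7, 32.2 and 32.9 CPM in Mirc11-/- libraries. No stimulated library reached an unstimulated one of its genotype, with log2 changes of -0.62 ± 0.11 (adjusted p = 0.0006) and -0.44 ± 0.11 (0.00426). Herc6, the main mouse ISG15 ligase, measured 27.6, 31.6 and 21.3 CPM and then 24.5, 24.3 and 19.7 CPM in wild-type libraries, and 31.7, 31.5 and 32.2 CPM and then 30.2, 27.4 and 30.1 CPM in Mirc11-/- libraries. Its wild-type groups overlapped and its Mirc11-/- groups did not, and neither change passed (adjusted p = 0.188 and 0.465). The changes of Usp18, the protease that removes ISG15, at 3.00 to 12.7 CPM, did not pass without the block either, with adjusted p = 0.503 and 0.325.

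Of the PARP genes, which encode ADP-ribosyltransferases, Parp14 measured 101, 106 and 89.2 CPM and then 124, 133 and 106 CPM in wild-type libraries, and 114, 103 and 111 CPM and then 127, 122 and 138 CPM in Mirc11-/- libraries. Stimulated libraries were above unstimulated ones in both genotypes, with log2 changes of 0.29 ± 0.10 (edgeR adjusted p = 0.0338) and 0.24 ± 0.10 (0.0549). The wild-type call ended without unstimulated wild-type replicate 1 (0.0794) or 3 (0.166), stimulated wild-type replicate 1 (0.104) or 2 (0.152), or unstimulated Mirc11-/- replicate 1 (0.0567) or 3 (0.0561). Parp9 measured 72.3, 79.9 and 60.3 CPM and then 81.3, 80.2 and 78.8 CPM in wild-type libraries, and 74.3, 71.5 and 75.4 CPM and then 51.6, 76.1 and 73.7 CPM in Mirc11-/- libraries. Its groups overlapped in both genotypes, the low value being stimulated Mirc11-/- replicate 1, and neither it nor Parp12 was called.

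Sp100, a nuclear body protein, measured 112, 120 and 95.3 CPM and then 111, 100.4 and 91.8 CPM in wild-type libraries, and 120, 112 and 122 CPM and then 110, 117 and 111 CPM in Mirc11-/- libraries, with stimulated and unstimulated libraries overlapping in both genotypes. Trim30a, a TRIM protein that restrains NF-kB signalling, measured 41.6, 68.5 and 29.3 CPM and then 37.3, 62.3 and 27.0 CPM in wild-type libraries, and 75.1, 61.0 and 80.2 CPM and then 54.8, 63.0 and 75.8 CPM in Mirc11-/- libraries. Wild-type replicate 2 was above and replicate 3 below its partners under both treatments, a spread wider than the change with stimulation (-0.13 ± 0.35). Lgals3bp, a secreted galectin ligand, measured 102, 108 and 81.0 CPM and then 103, 106 and 90.3 CPM in wild-type libraries, and 123, 94.9 and 121 CPM and then 98.0, 94.3 and 105 CPM in Mirc11-/- libraries. Epsti1 measured 81.2, 85.9 and 72.7 CPM and then 92.9, 75.8 and 79.2 CPM in wild-type libraries, and 85.8, 91.6 and 95.0 CPM and then 63.2, 87.3 and 86.0 CPM in Mirc11-/- libraries. Neither gene was called, and stimulated and unstimulated libraries overlapped in both genotypes. Of the remaining members, Ifi35 fell in both genotypes by 0.48 and 0.71 on the log2 scale (adjusted p = 0.0219 and 0.00169), and its wild-type call ended without unstimulated replicate 2 (0.0867) and without stimulated replicate 1 (0.0984) or 3 (0.0882). Xaf1, an apoptosis-related gene, fell by 0.66 in Mirc11-/- cells (adjusted p = 0.0371), a call that ended without either of unstimulated replicates 1 (0.0875) and 3 (0.0932) or stimulated replicates 1 (0.119) and 2 (0.0912). Ifi27 and Ifi44 were called in neither genotype without the block.

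No member passed the test of a difference in response between genotypes. The interaction, tested as the Mirc11-/- change minus the wild-type change, gave 0 of 43 members in either direction by edgeR. Over all genes 0% were higher and 0.0115% lower. At an unadjusted edgeR p under 0.05 there were 0 members, and the share of all genes at that threshold is not given. DESeq2 also gave 0. The lowest edgeR adjusted p of a member, that of Parp9, was 0.504. The median was -0.16 over members and -0.02 over all genes.

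Genes upstream of the members included several that rose with stimulation. Of 43 genes in a list of interferon ligands, receptors and signalling factors 22 were tested, of which 10 rose and 4 fell in wild-type and 7 rose and 4 fell in Mirc11-/- cells. Of all genes tested, 16.1% rose and 15.7% fell in wild-type cells, and 23.5% rose and 22.1% fell in Mirc11-/- cells. Ifng, which encodes interferon-gamma, measured 40.2, 39.0 and 35.6 CPM and then 143, 221 and 176 CPM in wild-type libraries, and 44.4, 47.5 and 46.1 CPM and then 44.7, 71.3 and 62.0 CPM in Mirc11-/- libraries. Stimulated wild-type libraries were far above all others, while stimulated Mirc11-/- libraries overlapped unstimulated ones through replicate 1. Ifng rose by 2.24 ± 0.17 in wild-type cells (edgeR adjusted p = 1.35e-06), was at 0.37 ± 0.17 in Mirc11-/- cells (0.0887), and gave an interaction of -1.87 ± 0.24 (0.0223). Irf4 rose by 2.76 ± 0.14 in wild-type and by 1.62 ± 0.14 in Mirc11-/- cells, Stat3 by 1.65 ± 0.12 and 2.06 ± 0.12, and Jak2 by 0.96 ± 0.08 and 0.77 ± 0.08. The feedback inhibitor Socs1 fell by 1.41 and 2.03 on the log2 scale. Ifnb1 had at most 2 counts in any library, and Ifnz was the one type I ligand gene to pass the filter.

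Adaptors that lead to interferon production numbered 13 tested of 16, with 3 rising and 4 falling in wild-type and 3 rising and 3 falling in Mirc11-/- cells. The kinase gene Ikbke rose by 1.27 ± 0.10 and 1.22 ± 0.10, and Mb21d1, which encodes the DNA sensor cGAS, fell by 0.74 and 0.79 on the log2 scale. Of 77 further interferon-induced genes 69 were tested, of which 12 rose and 16 fell in wild-type and 11 rose and 20 fell in Mirc11-/- cells. For both lists the shares over all genes tested were 16.1% rising and 15.7% falling in wild-type cells, and 23.5% and 22.1% in Mirc11-/- cells. Nlrc5, the transactivator of MHC class I genes, fell by 1.56 and 1.44 on the log2 scale, and Slfn2 rose by 1.07 and 0.89. Between genotypes in stimulated cells, the signalling list had 1 gene higher and 3 lower in Mirc11-/- cells, among them Ifng at -1.60 and Irf4 at -0.93, the adaptor list had 0 higher and 2 lower, and the further interferon-induced genes had 2 higher and 2 lower. Of all genes tested, 3.89% were higher and 5.13% lower there.

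Between genotypes, 1 member was called. Bst2 encodes tetherin, which holds budding virions at the cell surface, and measured 22.7, 25.8 and 18 CPM in unstimulated wild-type against 12, 9.08 and 12.7 CPM in unstimulated Mirc11-/- libraries, and 13.2, 21.1 and 15.7 CPM against 5.16, 7.11 and 6.57 CPM after stimulation. The genotypes did not overlap under either treatment. Such non-overlap held for 5 of the 43 members without and 6 with stimulation, against 17.8% and 32.6% of all genes tested. Bst2 was lower in Mirc11-/- cells by a log2 difference of -0.97 ± 0.19 (edgeR adjusted p = 0.0236) without and -1.40 ± 0.20 (0.00173) with stimulation. In unstimulated cells 0 members were higher and 1 lower, where 0.309% of all genes were higher and 0.796% lower, and in stimulated cells 0 were higher and 1 lower, where 3.89% were higher and 5.13% lower. The unstimulated call ended without wild-type replicate 1 (adjusted p = 0.115) or 2 (0.107) and without Mirc11-/- replicate 1 (0.0740), 2 (0.157) or 3 (0.0731), while the stimulated call held without each library in turn. In the edgeR fit that adds vomeronasal reads as a covariate, the stimulated difference was -0.62 and did not pass (adjusted p = 0.819). That level was 24.8 to 41.5 CPM in stimulated wild-type and 49.1 to 85.4 CPM in stimulated Mirc11-/- libraries. The fit could therefore separate genotype from this level only by the spread within groups.

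Hsh2d, an adaptor gene of haematopoietic cells, had log2 differences of the opposite sign. It measured 3.96, 4.51 and 2.45 CPM in unstimulated wild-type against 7.34, 5.93 and 7.2 CPM in unstimulated Mirc11-/- libraries, and 3.54, 3.77 and 2.44 CPM against 4.52, 5.24 and 7.02 CPM after stimulation. The genotypes did not overlap, but the log2 differences of 0.92 ± 0.24 and 0.78 ± 0.25 did not pass (edgeR adjusted p = 0.105 and 0.0589). They passed with DESeq2 (0.0308 and 0.0356), and without Mirc11-/- stimulated replicate 1 the unstimulated one passed (0.0484), as did the stimulated one without unstimulated wild-type replicate 3 (0.0428).

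Bst2 (chr8:71534255-71537456, GRCm38) and Hsh2d (chr8:72189638-72201527) lie 12.7 and 12 Mb from the deleted cluster at chr8:84208518-84208921. Within 15 Mb of the cluster 8.33% of 336 tested genes were called between genotypes in unstimulated and 20.5% in stimulated cells, against 0.964% and 8.74% of 16501 genes on other chromosomes. Ifi30, a lysosomal thiol reductase gene from the list of further interferon-induced genes, lies near Bst2 and was lower too, by -0.84 ± 0.18 and -1.16 ± 0.19 on the log2 scale. Called genes in this region went both ways, and Pde4c, also near Bst2, was higher by 2.47 and 2.79. Of 119 tested genes from Bst2 to the cluster, 5 were higher and 4 lower without stimulation, and 11 and 11 with it. The part of position beside the deleted cluster in these differences was not tested. Bst2 is also a marker of plasmacytoid dendritic cells: summed CPM of 4 other markers of that type, all present, was 1016 to 1137 in wild-type and 763 to 944 in Mirc11-/- libraries, nearly all from Irf8 and Tcf4, while Siglech was at 0.559 to 2.03 CPM. Summed CPM of 7 dendritic-cell markers, mainly Itgax, was 77.5 to 131 in wild-type and 158 to 207 in Mirc11-/- libraries. Over all libraries Zbtb46 was at 6.76 to 24.2 and Xcr1 at 2.69 to 8.64 CPM, with Clec9a, Cd209a and Flt3 at or near 0, and the part of these shifts in the Bst2 difference was not tested.

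**Figure D4:**
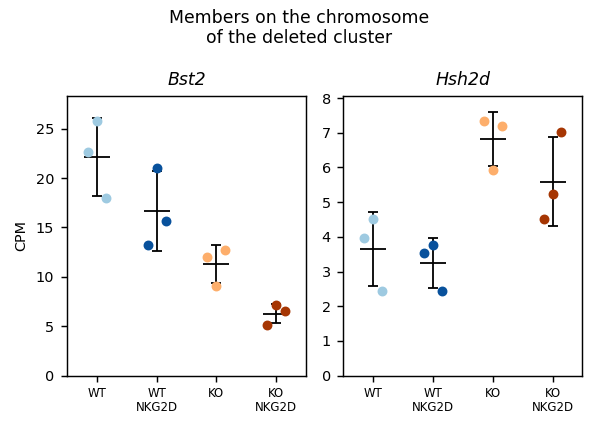
CPM of Bst2 and Hsh2d is plotted for each library (points) with the group mean and SD (bars), for wild-type (WT) and Mirc11-/- (KO) cells with and without NKG2D stimulation. Mirc11-/- points lie below wild-type points of the same treatment for Bst2 and above them for Hsh2d.

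The other 42 tested members were not called between genotypes in either treatment. Of all 43, 35 had a positive log2 difference (Mirc11-/- minus wild-type) without and 25 with stimulation, counts not set here against the share of all genes. The medians were 0.14 and 0.08, against 0.01 and 0.02 over all genes. These medians were small beside the spread between wild-type libraries described next.

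The wild-type libraries differed among themselves across the set, in a pattern noticed after the values were seen and therefore given as a description with no test. For 27 of 43 members (62.8%) replicate 2 was the highest and replicate 3 the lowest library both without and with stimulation, against 5.67% of all genes tested. Of the further interferon-induced genes 24 of 69 (34.8%) showed that order. In the unstimulated group 42 of 43 members were above their group mean in replicate 2 and 0 in replicate 3, against 52.0% and 49.3% of all genes. In the stimulated group these were 38 and 2, against 50.4% and 50.5% of all genes. The median log2 difference of replicate 2 minus replicate 3 was 0.58 without and 0.54 with stimulation, against 0.01 and 0.00 over all genes.

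Members with few reads differed by the widest ratios. Ifi44 measured 2.04, 5.22 and 0.321 CPM without and 1.12, 3.06 and 0.0508 CPM with stimulation in wild-type libraries. Usp18 measured 5.30, 12.7 and 3.17 CPM and then 3.77, 8.10 and 3.00 CPM, Rsad2 4.20, 8.96 and 2.97 CPM and then 6.29, 11.3 and 4.01 CPM, and Cmpk2 3.18, 5.71 and 1.56 CPM and then 2.42, 4.74 and 1.83 CPM. In each of these 4 genes replicate 2 was highest and replicate 3 lowest under both treatments. Members given in full above with the same order include Oas1a, Oas3, Ifit1 and Trim30a, where replicate 2 stood 3.91, 3.40, 3.73 and 2.33 times as high as replicate 3 in unstimulated cells. The 4 Gbp members differed little: Gbp2 stood 1.31, Gbp3 1.18, Gbp4 1.14 and Gbp7 1.21 times as high. Small ratios were not particular to them, with Stat2 at 0.99, Trim25 at 1.12 and Eif2ak2 at 1.14. Gbp6, outside the set, was among the 100 genes with the largest excess described at the end.

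In Mirc11-/- cells the replicate 2 minus replicate 3 difference was mostly negative and smaller in the median. Replicate 2 was below replicate 3 under both treatments for 30 of 43 members, against 25.7% of all genes, with median log2 differences of -0.34 without and -0.15 with stimulation. Across the 43 members, the replicate 2 minus replicate 3 difference in unstimulated cells correlated with that in stimulated cells at r = 0.91 in wild-type and 0.67 in Mirc11-/- cells, as a description over genes of the same libraries. Members with an ISRE core did not stand out, with a median wild-type unstimulated difference of 0.58 for 15 members with and 0.70 for 19 members without a core. Summed dendritic-cell markers were 131 CPM in wild-type replicate 2 under both treatments and 77.5 to 90.4 CPM in the other 4 wild-type libraries. NK-marker sums were also highest in replicate 2 of each wild-type group, at 17283 and 12080 CPM, as were those of plasmacytoid dendritic-cell markers, at 1137 and 1132 CPM, and T-cell markers, at 416 and 387 CPM. The part of these values in the pattern was not tested.

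**Figure D5:**
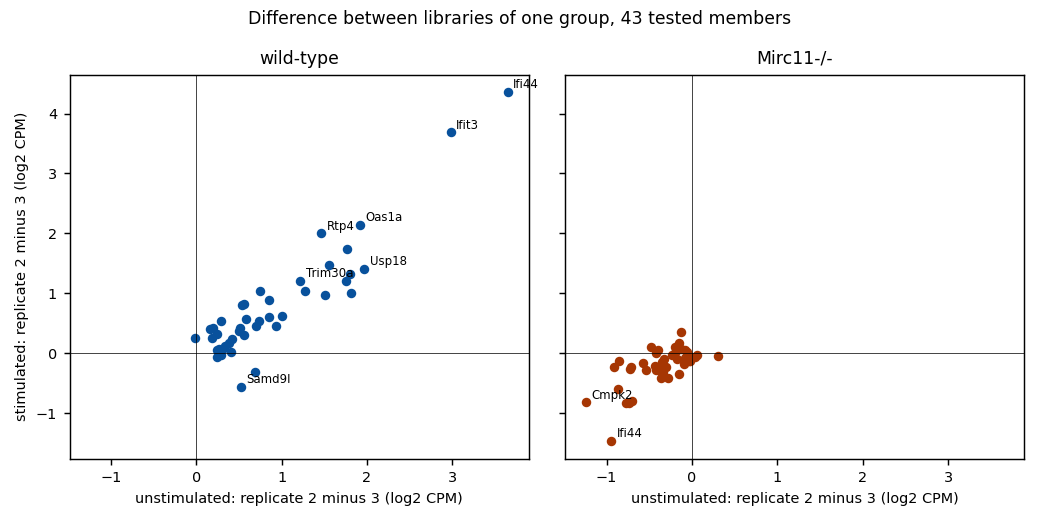
Each point is a tested member, placed by the log2 CPM difference of replicate 2 minus replicate 3 in unstimulated (x) and stimulated (y) cells, for wild-type (left) and Mirc11-/- (right). Most wild-type points lie at the upper right, with Ifi44 and Ifit3 farthest out, and most Mirc11-/- points lie at the lower left.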

How the data were processed

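The deposited table holds RSEM expected counts per gene for polyadenylated RNA of 12 libraries, already whole numbers and not scaled between libraries. RSEM 1.3.0, Bowtie2 2.2.8, Trim Galore 0.4.1, bcl2fastq and the build GRCm38 are named, per the submitters' processing notes. The annotation release is not given in the sources used here and neither is the strand setting. Without the latter, reads of overlapping or antisense genes cannot be told apart. Totals per library ranged from 15139281 to 25342991 counts.

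Genes were filtered with filterByExpr, scaled by TMM and tested by quasi-likelihood (robust setting) in edgeR 4.0.16 (R version 4.3.3). All 12 libraries entered 1 fit of 4 group means. Tests were two-sided, with Benjamini-Hochberg adjustment over all 17457 genes and a threshold of 0.05, and the fit was tested on simulated counts. Log2 CPM differences between replicates used a prior count of 2. Gene positions and 31-base words came from GENCODE vM21 and promoters from RefSeq, both on GRCm38.

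Values in every library are given for the 2 highest members by CPM in each role, members called between genotypes, the 3 largest called rises and falls per stimulation contrast, and Bst2 and Hsh2d. Others shown in full, Ifi44, Usp18, Rsad2 and Cmpk2, were chosen after their values were seen. Of the pathway lists, genes named by rule are those called with the 4 smallest p, and others, the remaining Gbp genes, Socs1, Ifnb1, Ifnz and the genes of the Mirc11 cluster among them, were added by hand. The members and lists were chosen with earlier results of these data known.

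Alternatives were DESeq2 1.42.0 (size factors and Wald test), no composition factor, other filters, replicate blocks, a covariate and leaving out each library. Same-numbered wild-type libraries deviated together over 10813 genes (r = 0.26, 0.37 and 0.32), and same-numbered Mirc11-/- libraries did not in every pair (r = 0.17, -0.08 and 0.30). The pairing of wild-type libraries therefore comes from the data, not from the labels.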

Additional observations from a re-analysis of the deposited data

Results flagged for a closer look

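The response of Ifng to stimulation differed between genotypes by the interaction test of edgeR. The difference of log2 changes, Mirc11-/- minus wild-type, was -1.87 (adjusted p = 0.0223), with Ifng higher in all 3 stimulated than in all 3 unstimulated wild-type libraries. Groups of 3 libraries were too small for a test of single outlying libraries.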

How the results depend on the processing

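Gbp2, Gbp3 and Gbp4 passed with stimulation in both genotypes under all 20 alternatives run. Over the 46 member-by-comparison results that some setting called, 23 of them called as reported, 791 values kept direction and side of the threshold, 54 lost and 57 gained a call, and 12 reversed. For stimulated wild-type cells, members that rose numbered 2 with no filter and 2 to 5 when each library was left out in turn, the lowest without unstimulated replicate 3 or stimulated replicate 1. Members that fell there numbered 8 with no composition factor, 2 with the vomeronasal covariate and 3 to 9 by leave-one-out: 3 without unstimulated replicate 2 or stimulated replicate 1 or 3, and 9 without unstimulated replicate 3 or stimulated replicate 2. In stimulated Mirc11-/- cells 4 rose with no composition factor and with the stricter filter, and 1 fell with the covariate. Without stimulated Mirc11-/- replicate 1, 2 rose and 7 fell. Between genotypes unstimulated, 1 member was higher with no filter and with DESeq2, and leave-one-out gave 0 to 1 higher and 0 to 1 lower. Between genotypes stimulated, 2 were higher with no composition factor, 1 with no filter, 1 with the stricter filter, 1 with DESeq2 and 0 to 2 by leave-one-out. There 0 were lower with the covariate, and 1 to 2 by leave-one-out, Samd9l being added without stimulated Mirc11-/- replicate 2. Of these fits, only the falls with stimulation under the covariate have shares over all genes, given above. The other counts in this paragraph have no such baseline and show only how calls moved.

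The replicate block within genotype gave 12 falling members in wild-type cells. In Mirc11-/- cells it gave 4 rising and 15 falling, where 23.8% of all genes rose and 23.9% fell. Same-numbered Mirc11-/- libraries did not deviate together in every pair, as given above. With this block the share of falling members was above that of all genes in both genotypes, and that of rising members was below it. A block on a number shared by all 4 groups gave 5 rising and 5 falling in wild-type and 3 rising and 9 falling in Mirc11-/- cells. Shares over all genes are not given for that block. Neither block called a member in the interaction.

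Reversed log2 changes with the vomeronasal covariate were, in wild-type cells, Bst2 0.32, Isg15 0.0046 and Oas1a 0.0606, and, in Mirc11-/- cells, Bst2 0.61, Ifit2 0.33, Isg15 0.81, Oas1a 0.28, Oas3 0.21, Usp18 1.70, Ifi27 0.54 and Ifi44 0.72. Ifi44 in wild-type cells ranged from -2.03 without stimulated replicate 2 to 0.24 without unstimulated replicate 2. The vomeronasal level is itself higher in every stimulated than in every unstimulated library. It is also higher in every stimulated Mirc11-/- than in every stimulated wild-type library. The cause of the reversals was not tested. ISRE and GAS cores within the bases before the start were found in 12 and 7 members. Low counts limit Oas2, Ifit3, Ifi44 and Oasl2.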

Other observations

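Of the 100 genes with the largest excess of wild-type replicate 2 over replicate 3 under both treatments, 13 were members and 7 came from the list of further interferon-induced genes (Ddx60, Gbp6, Gvin1, Ifi27l2a, Ly6a, Mx2 and Trim30d). Mx2, a paralogue of Mx1, measured 0.667, 1.54 and 0.120 CPM without and 0.373, 0.816 and 0.102 CPM with stimulation in wild-type libraries.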
